A study of Arabidopsis thaliana with 14 samples.

Results

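WRKY and NAC proteins form large families of plant transcription factors, and 7 members of these families were followed here through auxin treatment of Arabidopsis thaliana roots. They are all the probe sets of the Affymetrix ATH1 array whose annotation gives 1 gene with WRKY, NAC or ANAC plus a number as its symbol: WRKY6 (AT1G62300), WRKY20 (AT4G26640), WRKY22 (AT4G01250), WRKY42 (AT4G04450), WRKY47 (AT4G01720), WRKY53 (AT4G23810) and NAC014 (AT1G33060). They are 7 of 13513 probe sets that name 1 gene, with 1 probe set each. Among them 6 are WRKY genes and 1 is a NAC gene, so no statement about the NAC family as a group can be made from them. RefSeq lists 71 genes with a WRKY number and 100 with a NAC or ANAC number as symbol or synonym, of which 7 and 1 had a probe set naming 1 gene. That count of WRKY genes goes by synonym too, and it takes in ZAP1 (also called WRKY1), which lies outside the rule above. Genes without such a probe set were not analysed here. The annotation names no gene for 8730 probe sets and several for 503. A gene that is not named alone may therefore still have a probe set on the array.

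The slr-1 mutant, which carries a dominant mutation in the auxin response repressor SLR/IAA14 and is defective in lateral roots, was compared with the wild type Col-0. Seedlings of both genotypes germinated on 10 µM NPA, which blocks auxin transport, and at an age of 3 days were given 10 µM NAA, a synthetic auxin. Arrays 1 and 2 of a group are its replicates 1 and 2. The groups were slr-1 at 0, 2 and 6 h of NAA, Col-0 at 0, 2 and 6 h of NAA, and Col-0 after a mock treatment of 6 h, with 2 arrays each and 14 in all. The tissue was the stretch of root above the meristem and below the hypocotyl, and about 1500 seedlings were harvested for each time. All groups share the growth on NPA. A segment holds many cell types, and in such bulk RNA a change in the number of cells of a type and a change in RNA per cell cannot be told apart. No mock group at 2 h or for slr-1 was analysed here. NAA and the transfer itself cannot be told apart in those comparisons. The description field of both mock arrays names a tissue of another organism, but the source name and the protocol of both give roots, and they were used as Col-0 mock arrays.

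WRKY factors bind a short DNA element called the W-box and are best known for control of defence, wounding and senescence programmes. Many WRKY genes are themselves switched on within minutes to hours by stress signals, often downstream of MAP kinase cascades, and many carry W-boxes in their own promoters. NAC factors share a DNA-binding NAC domain and serve in organ boundaries, secondary walls, senescence and stress. In roots, the family member NAC1, which no probe set named alone in the annotation used, is known as a promoter of lateral roots downstream of auxin.

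Values are MAS5 signals, which are linear intensities. As deposited, they had a trimmed mean (a mean without the extremes) of 1000.06 to 1000.08 on every array, so they had been scaled to a common level. Their alike medians of 357 to 397 are therefore no separate check of the arrays. Signals are compared within a gene only, since probe sets differ in brightness. Changes are log2 values of the signal plus 18.9, with a standard error (SE) and an adjusted p from a limma model over all 14882 tested probe sets, and a change is called at an adjusted p under 0.05. The number of arrays limits the precision. Replicate arrays correlated at 0.951 to 0.977 across tested probe sets, which are not independent replicates. The GAPDH probe sets, a measure of RNA integrity, had a ratio of 3′ signal over 5′ signal of 1.16 on slr-1 0 h array 2 and of 0.546 to 0.742 on the other 13 arrays, and slr-1 6 h NAA array 2 had the lowest maximum signal. Of 29 marker genes for root and shoot cell types, only the root hair gene EXPA7 was named alone for a probe set in the annotation. The other markers were not identified among the probe sets, so the labelled tissue was not checked further. EXPA7 gave 26.2 to 96.5 in the slr-1 groups, 54.5 to 439.6 in the Col-0 groups other than mock, and 547.3 and 502 in Col-0 6 h mock. Only the mock group had both EXPA7 arrays above the filter described next, so the EXPA7 values are given without a test. The part of EXPA7 in the results against mock and in the comparisons of slr-1 with Col-0 was not tested.

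Of the 7 genes, 6 were tested: WRKY42 stayed under the filter of 218.1 on all 14 arrays. WRKY53 exceeded the filter on 6 arrays, those of Col-0 2 h and 6 h NAA and of slr-1 2 h NAA, so it entered the test through the groups in which it was high. The other 5 exceeded it on all 14. Over the 7 groups, WRKY53 (adjusted p = 7.6e-06), WRKY6 (adjusted p = 1.42e-05) and WRKY22 (adjusted p = 6.57e-05) varied by limma's moderated F test. The peak of WRKY53 at 2 h in Col-0 was known when the genes were chosen, so its F test is descriptive. WRKY47 (adjusted p = 0.0638), WRKY20 (adjusted p = 0.148) and NAC014 (adjusted p = 0.243) did not pass. Of all tested probe sets 57.4% passed the F test, so 3 of 6, with WRKY53 among the 3, is close to the share over the array.

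**Figure D1:**
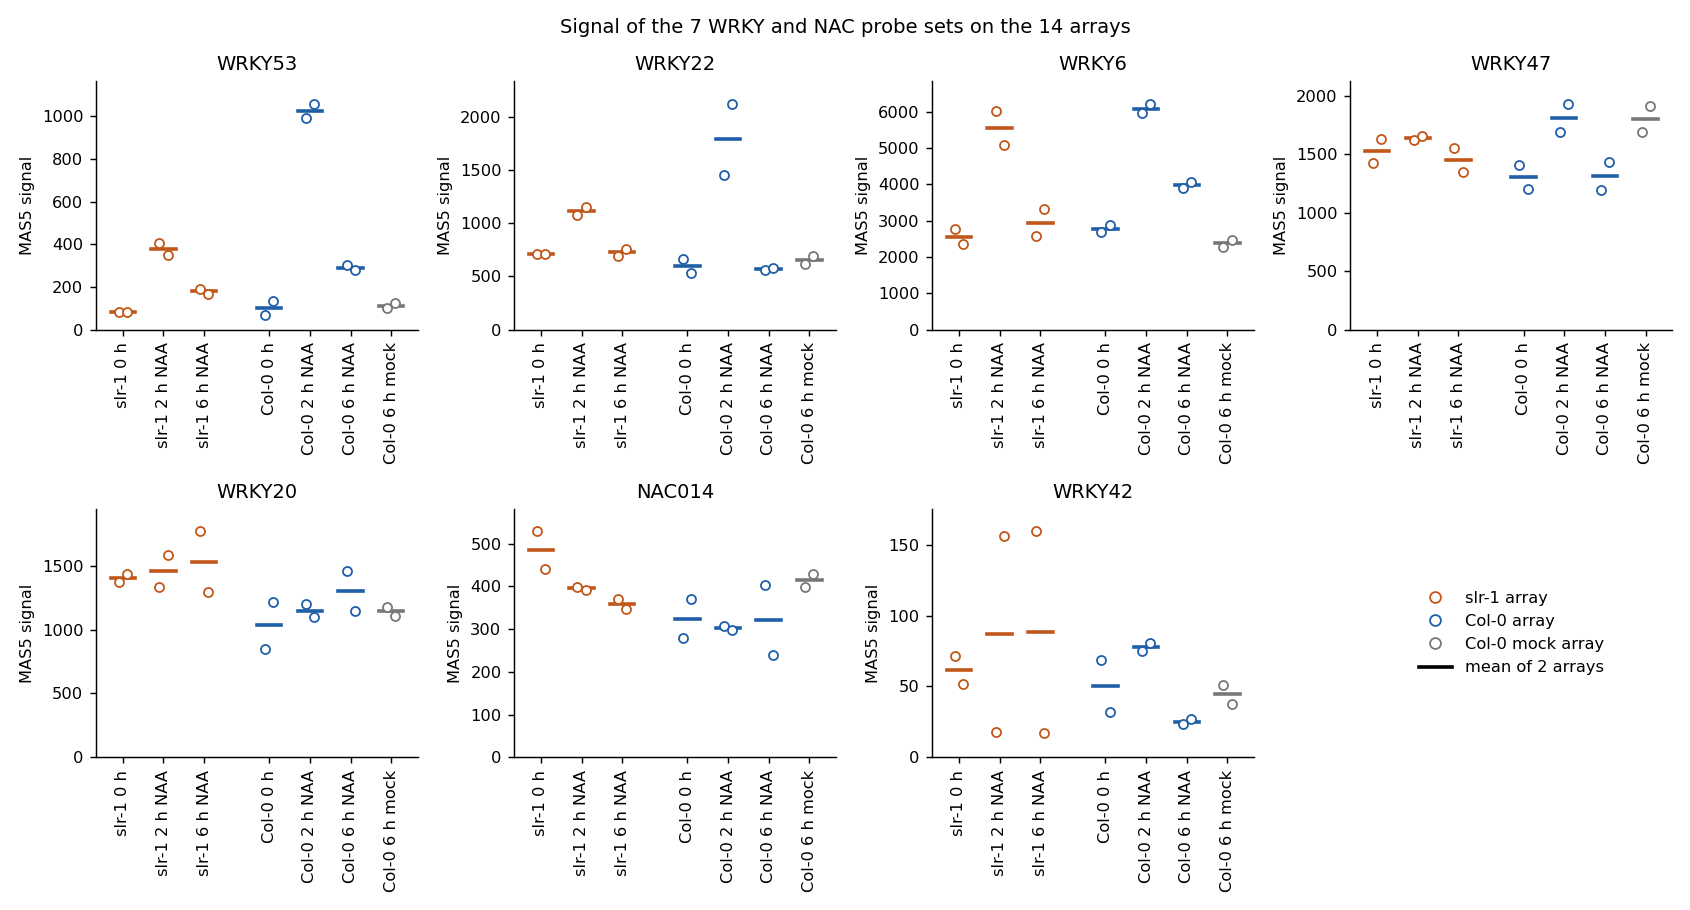
MAS5 signal (y axis, linear from 0, each panel on its own scale) of the 7 genes in slr-1 and Col-0 at 0, 2 and 6 h of NAA and in Col-0 after 6 h of mock treatment. Circles are single arrays and bars the mean of 2 arrays. WRKY53, WRKY22 and WRKY6 stand highest at 2 h of NAA in both genotypes. WRKY47 also has its highest means there, but its arrays overlap those of 0 h in slr-1 and those of mock in Col-0. WRKY20 and NAC014 show no such peak.

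WRKY53, a group III WRKY factor known as a positive regulator of leaf senescence and a target of MAP kinase signalling, was low in the absence of NAA and peaked at 2 h in both genotypes. In slr-1 its signal was 84.4 and 84.7 at 0 h, 405.9 and 347.9 at 2 h, and 192 and 168.4 at 6 h. In Col-0 it was 68.5 and 131.8 at 0 h, 993.5 and 1060.1 at 2 h, and 301.6 and 280 at 6 h of NAA, and it was 103 and 122.8 after 6 h of mock. In order of mean level, Col-0 2 h stood at 1027 ± 47.1, slr-1 2 h at 377 ± 41, Col-0 6 h at 291 ± 15.3 and slr-1 6 h at 180.2 ± 16.7 (SD, n = 2 each), with no overlap between neighbours. The 3 groups without NAA came last, with means of 84.55 to 112.9, and neighbours among them overlapped.

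In slr-1, WRKY53 rose at 2 h by 1.93 (SE 0.31, adjusted p = 9.96e-04), and the ratio of mean signals was 4.46. In Col-0 it rose by 3.19 (SE 0.31, adjusted p = 9.84e-06), the ratio of mean signals was 10.3, and 58 of the 14882 tested probe sets had a larger log2 change. The corresponding number in slr-1 was 134. The Col-0 rise was known when the genes were chosen, and WRKY53 passed the filter only through NAA groups where it was high. Its ranks at 2 h, and its adjusted p values in every comparison with an NAA group, are therefore descriptive. They give no separate support for the rise, for the fall from 2 h to 6 h or for the excess over mock. By 6 h the excess over 0 h was 0.94 in slr-1 (SE 0.31), which missed the threshold (adjusted p = 0.0557), and 1.43 in Col-0 (SE 0.31, adjusted p = 0.00156), which passed it. The slr-1 value passed with quantile normalization (adjusted p = 0.0463), without the variance trend (adjusted p = 0.0232), and without Col-0 0 h array 1 (adjusted p = 0.0337) or array 2 (adjusted p = 0.0374), within a range of 0.0232 to 0.214 over all alternatives. Against mock at 6 h, NAA left WRKY53 higher by 1.24 (SE 0.31, adjusted p = 0.0047), at 2.58 times the mean mock signal. The mock treatment itself gave 0.20 against 0 h (95% interval -0.46 to 0.86, adjusted p = 0.788). From 2 h to 6 h the change was -0.99 in slr-1 (adjusted p = 0.14), where all 4 differences between arrays were negative but the threshold was missed, and -1.76 in Col-0 (SE 0.31, adjusted p = 6.82e-04). The size of the 2 h rise on the log2 scale depends on the value added to the signal: it was 1.39 to 2.14 in slr-1 and 2.54 to 3.42 in Col-0 over the alternatives without a left-out array, and it passed the threshold in each of them.

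WRKY22, a group II-e factor known to act downstream of MAP kinases in flagellin signalling, also peaked at 2 h. Its signals in slr-1 were 705.9 and 707.1 at 0 h, 1079.1 and 1150.8 at 2 h, and 690.8 and 760.9 at 6 h. In Col-0 they were 660.7 and 531.4 at 0 h, 1455.1 and 2122.8 at 2 h, 561.4 and 575.8 at 6 h of NAA, and 616 and 691.1 after mock. The 4 arrays at 2 h of NAA were the highest of the 14, and the remaining 10 lay between 531.4 and 760.9. In Col-0 the 2 h rise was 1.54 (SE 0.19, adjusted p = 8.44e-05), 3 times the mean signal at 0 h, although its replicates at 2 h were the farthest apart of its 7 groups. At 6 h the change against 0 h was -0.06 (95% interval -0.46 to 0.35, adjusted p = 0.821), and against 2 h it was -1.60 (SE 0.19, adjusted p = 4.23e-05). The 6 h NAA and mock levels differed by -0.19 (95% interval -0.60 to 0.21, adjusted p = 0.431).

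In slr-1, WRKY22 rose at 2 h by 0.64 (SE 0.19, adjusted p = 0.0396), 1.58 times the mean signal at 0 h, and stood 0.04 above 0 h after 6 h (95% interval -0.37 to 0.44, adjusted p = 0.927). Its change in slr-1 between 2 h and 6 h was -0.61 (SE 0.19), which missed the threshold (adjusted p = 0.141), also under every alternative and without any 1 array. The call at 2 h lay near the threshold. It ended with no filter (adjusted p = 0.0579), without the variance trend (adjusted p = 0.0536) and with only the groups compared (adjusted p = 0.0731). It also ended without array 1 or 2 of slr-1 0 h (adjusted p = 0.0885 and 0.124), of slr-1 2 h NAA (adjusted p = 0.134 and 0.156), of slr-1 6 h NAA (adjusted p = 0.0507 and 0.0513) and of Col-0 6 h NAA (adjusted p = 0.0537 and 0.0539). The direction was the same in each of these, at 0.60 to 0.69.

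WRKY6, a group II-b factor known from senescence, defence and the repression of the phosphate exporter gene PHO1, rose at 2 h in both genotypes. In slr-1 its signal was 2770.4 and 2349.3 at 0 h, 6010.1 and 5088.8 at 2 h, and 2582.7 and 3317.1 at 6 h. In Col-0 it was 2679 and 2889.8 at 0 h, 5954.2 and 6224.7 at 2 h, and 3908.8 and 4074.3 at 6 h of NAA, and it was 2276 and 2481.3 after mock. The arrays at 2 h overlapped between the genotypes, and those at 6 h of NAA did not. At 2 h WRKY6 rose by 1.11 in slr-1 (SE 0.15, adjusted p = 2.93e-04) and by 1.12 in Col-0 (SE 0.15, adjusted p = 1.68e-04), 2.17 and 2.19 times the mean signals at 0 h.

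The level of WRKY6 at 6 h of NAA was 0.20 above 0 h in slr-1 (95% interval -0.13 to 0.52, adjusted p = 0.421) and 0.52 above it in Col-0 (SE 0.15, adjusted p = 0.0111). The Col-0 call ended without Col-0 6 h NAA array 2 (adjusted p = 0.0615) or Col-0 0 h array 1 (adjusted p = 0.0706). Against mock, NAA gave 0.74 in Col-0 (SE 0.15, adjusted p = 0.00112), and that call held without any 1 array. From 2 h to 6 h WRKY6 fell by 0.91 in slr-1 (SE 0.15, adjusted p = 0.0116), a call that ended without slr-1 2 h NAA array 1 (adjusted p = 0.103) or slr-1 6 h NAA array 1 (adjusted p = 0.075). In Col-0 it fell by 0.61 over the same interval (SE 0.15, adjusted p = 0.00691), a call that ended without Col-0 6 h NAA array 1 (adjusted p = 0.0536).

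WRKY47, which also belongs to group II-b, moved within a narrow range. Its signals in slr-1 were 1428 and 1634.3 at 0 h, 1623.3 and 1659.8 at 2 h, and 1557.1 and 1351.7 at 6 h. In Col-0 they were 1413.7 and 1204.8 at 0 h, 1691.7 and 1935.7 at 2 h, 1198.6 and 1438.4 at 6 h of NAA, and 1688.5 and 1919.3 after mock. Among the Col-0 arrays, those of 2 h NAA and of mock lay above those of 0 h and of 6 h NAA, without overlap. WRKY47 was lower with NAA than with mock at 6 h (log2 change -0.45, SE 0.16, adjusted p = 0.0294). Its level with mock was 0.46 above 0 h (95% interval 0.12 to 0.79), which missed the threshold (adjusted p = 0.115). At 6 h of NAA it stood 0.01 from 0 h (95% interval -0.33 to 0.34, adjusted p = 0.968).

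The WRKY47 call against mock ended with only the groups compared (adjusted p = 0.0543), without Col-0 6 h NAA array 1 (-0.32, adjusted p = 0.221) and without Col-0 6 h mock array 2 (-0.36, adjusted p = 0.167). From 2 h to 6 h in Col-0 it fell by 0.46 (SE 0.16, adjusted p = 0.0364). That call ended with quantile normalization (adjusted p = 0.0692), without the variance trend (adjusted p = 0.0554), without Col-0 2 h NAA array 1 (adjusted p = 0.0611) or array 2 (adjusted p = 0.209), and without Col-0 6 h NAA array 1 (adjusted p = 0.258). The 2 h difference in Col-0 was 0.47 (SE 0.16, adjusted p = 0.0537), and it passed with the higher filter (adjusted p = 0.0428) and without slr-1 0 h array 1 (adjusted p = 0.0474) or array 2 (adjusted p = 0.0485). In slr-1 the 2 h difference was 0.10 (95% interval -0.23 to 0.44, adjusted p = 0.728).

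WRKY20, a group I factor with a pair of WRKY domains, passed no comparison. Its signals in slr-1 were 1371.3 and 1436.8 at 0 h, 1333.8 and 1589.2 at 2 h, and 1771.2 and 1297.7 at 6 h. In Col-0 they were 852.1 and 1220 at 0 h, 1198 and 1099.7 at 2 h, 1459.4 and 1147.2 at 6 h of NAA, and 1180.9 and 1111.2 after mock. The 3 slr-1 groups had the highest means and each group overlapped the next in the order. At 0 h slr-1 was 0.45 above Col-0 (95% interval 0.03 to 0.88, adjusted p = 0.153). Col-0 at 6 h of NAA was 0.34 above 0 h (adjusted p = 0.179), which passed only without Col-0 0 h array 2 (0.59, adjusted p = 0.0497, with 0.0497 to 0.791 over single-array omissions).

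NAC014 passed no comparison either. In slr-1 its signal was 529.1 and 439.8 at 0 h, 397.8 and 392.7 at 2 h, and 371.2 and 346.6 at 6 h. In Col-0 it was 278.9 and 369.7 at 0 h, 307.5 and 298.8 at 2 h, 404.1 and 239.2 at 6 h of NAA, and 399.3 and 428.7 after mock. Both slr-1 0 h arrays lay above the other 12. The difference of slr-1 from Col-0 at 0 h was 0.56 (95% interval 0.01 to 1.11, adjusted p = 0.168). With NAA the changes against 0 h were -0.28 and -0.41 at 2 h and 6 h in slr-1 (adjusted p = 0.541 and 0.318) and -0.08 and -0.04 in Col-0 (adjusted p = 0.873 and 0.906).

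WRKY42, a group II-b relative of WRKY6 that is also known from phosphate homeostasis, was near the bottom of the signal range, and it was described after its values were seen, outside the rule for naming genes. It gave 71.8 and 51.4 in slr-1 at 0 h, 17.9 and 156 at 2 h, and 159.5 and 16.9 at 6 h. In Col-0 it gave 68.5 and 32.1 at 0 h, 75.1 and 80.6 at 2 h, 23.2 and 27 at 6 h of NAA, and 51.1 and 37.9 after mock. Within slr-1 2 h and slr-1 6 h the replicates were farther apart than the means of any groups, so no order of its levels is given. Without the filter, no comparison of WRKY42 passed, with adjusted p of 0.362 or more.

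**Figure D2:**
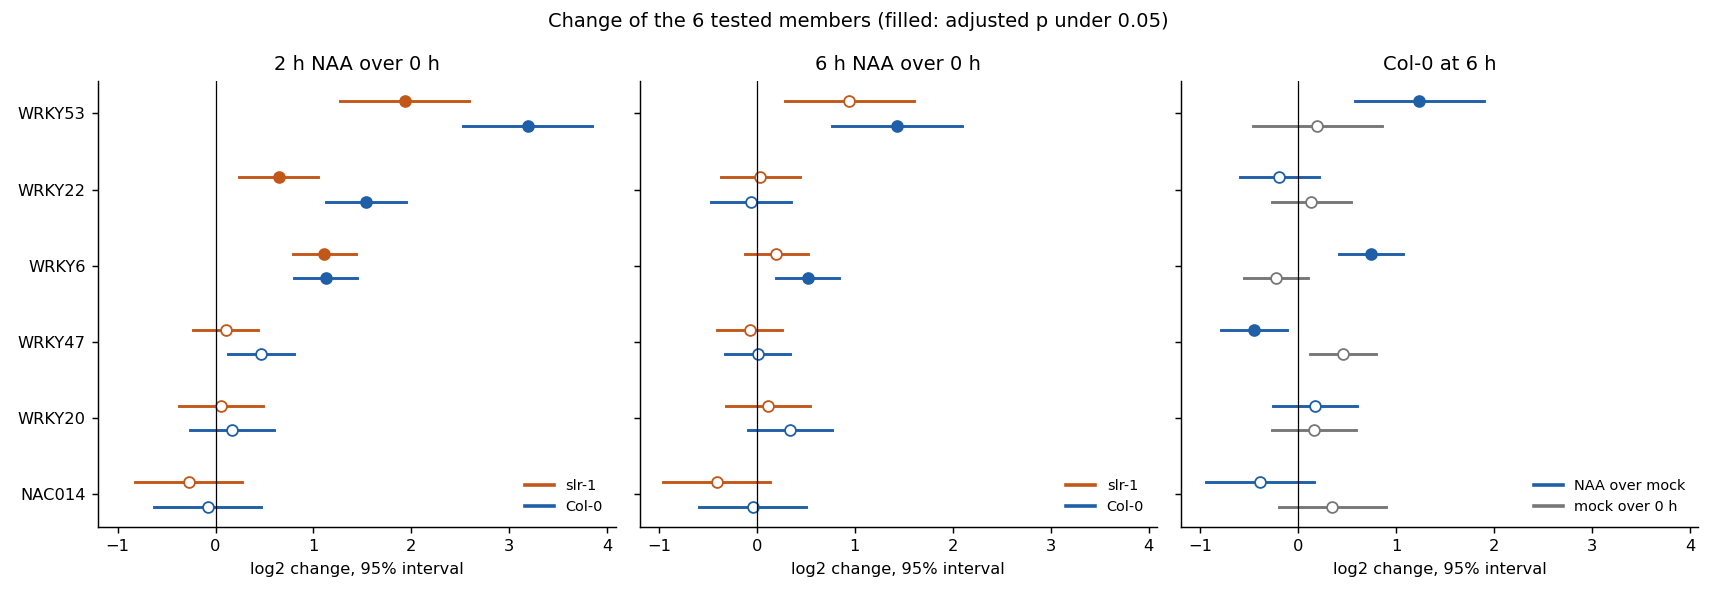
Log2 change (x axis) of the 6 tested genes with its 95% interval, at 2 h and at 6 h of NAA over 0 h in slr-1 and Col-0, and in Col-0 at 6 h for NAA over mock and for mock over 0 h. Filled points passed an adjusted p of 0.05: WRKY53, WRKY22 and WRKY6 did so at 2 h in both genotypes, and none did for mock over 0 h.

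Counted by comparison, 3 of the 6 tested genes were higher at 2 h of NAA in slr-1 and none lower, where 6.86% of all tested probe sets were higher and 5.45% lower. In Col-0 at 2 h it was also 3 higher and none lower, against 9.75% and 7.85% of all. Both sets of 3 were WRKY53, WRKY22 and WRKY6. The median change of the 6 was 0.37 in slr-1 and 0.80 in Col-0 at 2 h, and that of all tested probe sets was -0.05 in each genotype. These counts and medians include WRKY53, whose 2 h rise in Col-0 was known when the genes were chosen. WRKY53 also passed the filter only through NAA groups. The counts and medians are therefore no measure of enrichment, which was not tested, and the calls of WRKY22 and WRKY6 are those that do not rest on WRKY53. After 6 h the count in slr-1 was 0, with 1 gene, WRKY53, at an unadjusted p under 0.05, where 14.2% of all probe sets passed in either direction. In Col-0 after 6 h it was 2 higher, WRKY53 and WRKY6, where 22.3% of all were higher and 26.3% lower, so that 2 of 6 lay near the background. The count of 2 was 1 without Col-0 6 h NAA array 2 or Col-0 0 h array 1, and 3 without Col-0 0 h array 2.

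Against mock, 2 genes were higher with NAA, WRKY53 and WRKY6, and WRKY47 was lower, where 20.6% of all probe sets were higher and 24.8% lower. Mock against 0 h called 0 of 6 by limma, with 1 gene, WRKY47, at an unadjusted p under 0.05, while 5.08% of all passed. From 2 h to 6 h, WRKY6 was the 1 gene called in slr-1, and it was lower, where 0.464% of all probe sets were higher and 0.753% lower. This count was 0 without slr-1 2 h NAA array 1 or slr-1 6 h NAA array 1. In Col-0 over that interval 4 of 6 were lower, WRKY53, WRKY22, WRKY6 and WRKY47, where 15.5% of all were higher and 17.6% lower, and this count was 2 without Col-0 6 h NAA array 1. Comparisons with the same 0 h, 2 h or 6 h arrays share those arrays, so their counts are not independent of each other. The Col-0 counts for NAA against mock and for 2 h to 6 h also include WRKY53, chosen with its 2 h peak known.

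**Figure D3:**
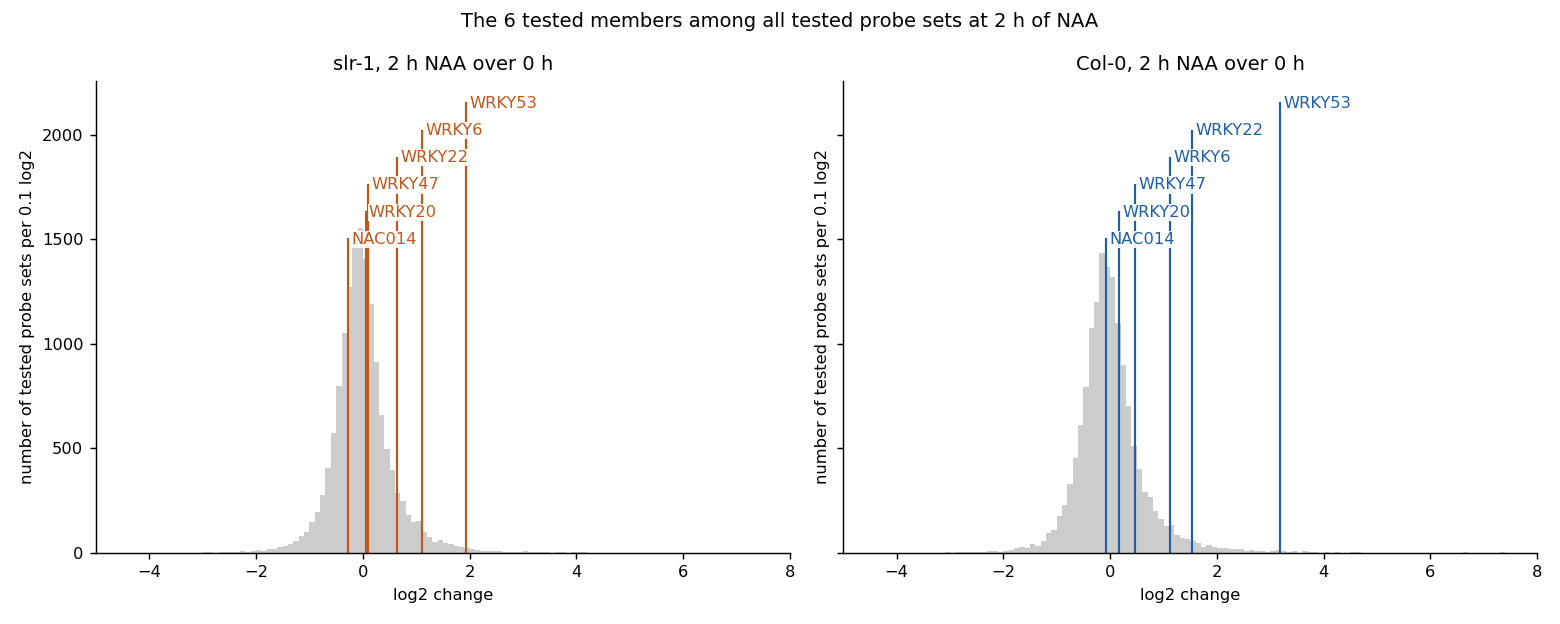
Distribution of the log2 change at 2 h of NAA over 0 h for 14882 tested probe sets (grey bars, number per bin of 0.1) in slr-1 and in Col-0, from -5 to 8, with the 6 tested genes marked by lines whose height has no meaning. WRKY53 lies at 1.93 in slr-1 and 3.19 in Col-0, in the upper tail of both, and NAC014 lies near the centre of both.

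Whether slr-1 responded differently from Col-0 was tested as the difference of the changes, slr-1 minus Col-0. None of the 6 genes passed in limma at 2 h, with 2 genes at an unadjusted p under 0.05, or at 6 h, with 0 such genes, where 3.18% and 27.5% of all tested probe sets passed. At 2 h, the largest difference was that of WRKY53, -1.26 (95% interval -2.19 to -0.32, adjusted p = 0.147, range 0.0524 to 0.373 over the alternatives), followed by WRKY22 at -0.90 (95% interval -1.47 to -0.32, adjusted p = 0.0923, range 0.0505 to 0.35). The difference of WRKY6 at 2 h was -0.01, with an interval of -0.47 to 0.44 (adjusted p = 0.985). These intervals are not adjusted for the number of tests. That of WRKY53 at 2 h also rests on the Col-0 rise known when the genes were chosen. At 6 h the differences ran from -0.49 for WRKY53 (95% interval -1.42 to 0.44, adjusted p = 0.434) to 0.09 for WRKY22 (95% interval -0.48 to 0.67, adjusted p = 0.826).

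**Figure D4:**
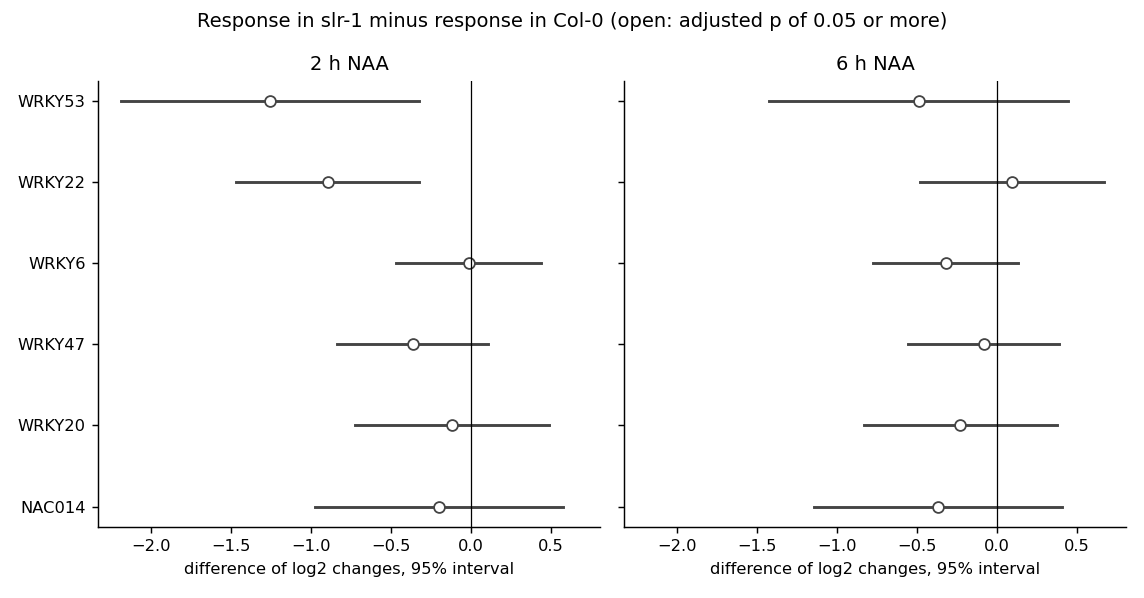
Difference between the response of slr-1 and that of Col-0 (x axis, difference of log2 changes, with its 95% interval) at 2 h and at 6 h of NAA for the 6 tested genes. Open points did not pass an adjusted p of 0.05, which holds for all 12 values. The intervals of WRKY53 and WRKY22 at 2 h lie below 0.

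Levels in the genotypes were also compared directly, in comparisons added after the values were seen. At 2 h of NAA, WRKY53 was lower in slr-1 than in Col-0 (log2 difference -1.40, SE 0.31, adjusted p = 0.0147 by limma), at 0.367 times the mean signal. Of all probe sets 2.68% were higher and 3.7% lower. This WRKY53 comparison rests on the Col-0 2 h arrays, whose peak was known when the genes were chosen, so its adjusted p is descriptive. The call ended without Col-0 2 h NAA array 1 (adjusted p = 0.117) or array 2 (adjusted p = 0.105) and without slr-1 2 h NAA array 1 (adjusted p = 0.0586) or array 2 (adjusted p = 0.119). WRKY22 at 2 h was at -0.65 (SE 0.19, adjusted p = 0.0587) and passed with the larger added value (adjusted p = 0.0486) and without Col-0 2 h NAA array 1 (-0.92, adjusted p = 0.0417). At 6 h, WRKY6 was lower in slr-1 (-0.44, SE 0.15, adjusted p = 0.0343), where 19.4% of all probe sets were higher and 15.1% lower. That call ended without the variance trend (adjusted p = 0.0609), without Col-0 6 h NAA array 1 (adjusted p = 0.106) or array 2 (adjusted p = 0.135), and without slr-1 6 h NAA array 1 (-0.27, adjusted p = 0.259). Before NAA, at 0 h, 0 of 6 genes differed by limma, with 2, WRKY20 and NAC014, at an unadjusted p under 0.05, and 13.4% of all probe sets passed. For WRKY53 the 0 h difference was -0.15 (95% interval -0.81 to 0.51, adjusted p = 0.792).

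Of 110 listed partners, kinases, targets and other named members of the families, 7 were each named alone for a probe set in the annotation. Those not so named include all 13 WRKY partners and kinases, all 16 secondary wall targets and all 29 NAC factors with other names. They were not looked for among the unnamed probe sets. ZAP1 (AT2G04880), a group I factor also called WRKY1, passed no test at 2 h, where its change was -0.32 in slr-1 (adjusted p = 0.279) and -0.26 in Col-0 (adjusted p = 0.358). In Col-0 it was lower at 6 h of NAA than at 0 h (-0.53, SE 0.18, adjusted p = 0.0238). Compared directly at 6 h of NAA, it was higher in slr-1 than in Col-0 (0.62, SE 0.18, adjusted p = 0.0158). At 6 h of NAA it was lower than mock in Col-0 (-0.67, SE 0.18, adjusted p = 0.00667), at 1168.9 and 1106 with NAA against 1672.4 and 1992.4 with mock, a call that ended without Col-0 6 h mock array 2 (adjusted p = 0.0651).

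ZAT10 (AT1G27730), a zinc finger repressor of early stress responses, had a peak at 2 h in Col-0. It was the 1 of 15 listed early stress genes that a probe set named alone. Its signals in slr-1 were 1230.9 and 893.9 at 0 h and 1249.3 and 963.2 at 2 h. In Col-0 they were 854.3 and 970.4 at 0 h, 2107.9 and 1623.8 at 2 h, and 1174.5 and 1107.8 at 6 h. The 2 h arrays stood apart from those of 0 h in Col-0 and overlapped with them in slr-1. The 2 h change was 0.06 in slr-1 (95% interval -0.35 to 0.48, adjusted p = 0.877) and 1.01 in Col-0 (SE 0.19, adjusted p = 0.00265), and the difference of these missed the threshold (-0.94, adjusted p = 0.0844). The Col-0 call at 2 h held under every alternative and without any 1 array. In the direct comparison at 2 h, ZAT10 was lower in slr-1 than in Col-0 (-0.74, SE 0.19, adjusted p = 0.0361). That call held in 6 of 9 alternatives and ended with no filter (adjusted p = 0.0516), without the variance trend (adjusted p = 0.0665) and with only the groups compared (adjusted p = 0.0638). It also held in 8 of 14 omissions of an array and ended without slr-1 2 h NAA array 2 (adjusted p = 0.286), Col-0 2 h NAA array 1 (adjusted p = 0.318), either array of slr-1 6 h NAA (adjusted p = 0.0519 and 0.0522) or either array of Col-0 6 h NAA (adjusted p = 0.0509 and 0.0512).

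Of 9 genes around NAC1, 3 were named alone for a probe set. SINAT5 (AT5G53360), a ubiquitin ligase known to target NAC1, gave 510.4 and 497.8 in slr-1 at 2 h, against 758.6 and 738.3 at 0 h (-0.55, SE 0.24, adjusted p = 0.16). In Col-0 it gave 497.3 and 309.6 at 2 h, against 780.3 and 888.8 at 0 h, and fell by 1.05 (SE 0.24, adjusted p = 0.00821), a call that ended without Col-0 2 h NAA array 2 (adjusted p = 0.107) or Col-0 0 h array 2 (adjusted p = 0.0691). At 6 h of NAA it fell against 0 h by 1.01 in Col-0 (SE 0.24, adjusted p = 0.00337), under every alternative and without any 1 array, and its change in slr-1 was -0.33 (adjusted p = 0.398). The mock level was at -0.72 against 0 h (95% interval -1.24 to -0.20, adjusted p = 0.112), and NAA differed from mock by -0.29 (95% interval -0.81 to 0.23, adjusted p = 0.35).

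The other 2 genes of that list named alone for a probe set, LBD16 (AT2G42430) and LBD29 (AT3G58190), are regulators of lateral root formation. Their changes with NAA against 0 h had the opposite sign to those of SINAT5. At 2 h LBD16 rose by 1.08 in slr-1 (SE 0.17, adjusted p = 0.00114) and by 3.22 in Col-0 (SE 0.17, adjusted p = 6.44e-08). LBD29 rose by 3.17 in slr-1 (SE 0.40, adjusted p = 1.84e-04) and by 6.30 in Col-0 (SE 0.40, adjusted p = 2.55e-07), and it was under the filter in Col-0 at 0 h and after mock. At 0 h LBD29 was already higher in slr-1 than in Col-0 (1.49, SE 0.40, adjusted p = 0.0267), with mean signals of 317.55 and 101.7. The responses at 2 h differed between the genotypes by -2.15 for LBD16 (adjusted p = 7.34e-04) and by -3.14 for LBD29 (adjusted p = 0.00947). The LBD29 difference missed the threshold without slr-1 2 h NAA array 1 (-2.92, adjusted p = 0.0528).

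Of 8 senescence genes only SWEET15 (AT5G13170), a sugar transporter gene also called SAG29, was named alone for a probe set. Its signal was 591.1 and 403.1 in slr-1 2 h, 398.7 and 737.1 in slr-1 6 h, and 24.6 to 230.3 on the other 10 arrays. It entered the test only through slr-1 2 h and slr-1 6 h, the groups with both arrays above the filter, so its values are given without a test. Among 17 defence genes only the lipase-like SAG101 (AT5G14930) was named alone for a probe set. Its signal was 71.6 to 295, and only slr-1 0 h had both arrays above the filter. SAG101 entered the test only through slr-1 0 h, the group with its highest mean, so its values are also given without a test. How far these 7 stand for the rest of their lists was not tested.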

How the data were processed

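The deposited values are 1 unlogged signal intensity per probe set and array, made with MAS5 by the authors per the submitters' processing notes; its version, settings and detection calls are not stated in these sources. Of 22810 probe sets 64 controls were left out. Probe sets were tested if both arrays of at least 1 group exceeded the pooled 40th percentile (218.1), which left 14882. The pooled 10th percentile (18.9) was added to each signal before log2 was taken, with no further normalization. limma 3.58.1 in R 4.3.3 fitted 1 mean per group to all 14 arrays, with variances that follow the mean (7 residual and 6.57 prior degrees of freedom), and p-values were adjusted by Benjamini-Hochberg over all tested probe sets in each of 11 comparisons, 2 more added later, and an F test. Intervals are 95% and unadjusted. Loci come from RefSeq (TAIR10.1), matched by gene ID for 13436 of 13513 probe sets; coordinates are not given, because the files name no build. The labels call the replicates biological repeats, and how far their material was separate is not stated.

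The members and gene lists were chosen with earlier results of these data known, and the rise of WRKY53 at 2 h in Col-0 was among those results. Genes were named by this rule: WRKY53 in every comparison, in each comparison up to 5 WRKY and 5 NAC genes past the threshold, by size of change, whose 4 differences between arrays had 1 direction, and up to 3 genes of each family with the highest mean log2 signal. Alternatives were another added value (the pooled 25th percentile, or 1), another filter (none, the pooled 60th percentile, or the mean of all arrays), quantile normalization, no variance trend, only the groups compared, the replicate number as a block, and each of the 14 arrays left out. No sequence is shown.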

Additional observations from a re-analysis of the deposited data

Results flagged for a closer look

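Among the genes given with values, the change with NAA differed between slr-1 and Col-0, by the test of the difference itself, for LBD16 and LBD29 and for none of the 6 tested WRKY and NAC genes. For LBD16 the response of slr-1 minus that of Col-0 was -2.15 at 2 h (SE 0.25, adjusted p = 7.34e-04) and -3.23 at 6 h (SE 0.25, adjusted p = 3.43e-06). For LBD29 it was -3.14 at 2 h (SE 0.57, adjusted p = 0.00947) and -3.98 at 6 h (SE 0.57, adjusted p = 2.20e-04), by limma in each case. The LBD29 values include a higher 0 h level in slr-1 than in Col-0 (1.49, adjusted p = 0.0267 by limma). Compared directly by limma, LBD29 levels in slr-1 differed from Col-0 by -1.65 at 2 h (adjusted p = 0.0245) and by -2.50 at 6 h (adjusted p = 3.56e-04). Groups of 2 arrays are too small to test for a single array that stands apart.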

How the results depend on the processing

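WRKY53, WRKY22 and WRKY6 kept their 2 h rises in Col-0, and WRKY53 and WRKY6 theirs in slr-1, under all 9 alternatives and without any 1 array. Of the counts of called genes, 0 in slr-1 at 6 h became 1 with quantile normalization and without the variance trend, and 1 in slr-1 against Col-0 at 2 h became 2 with the larger added value. In slr-1 against Col-0 at 6 h, 1 became 0 without the trend. Those changes came from single genes near the threshold, and the cause was not tested. With 1 array left out, the counts ranged from 3 to 4 for Col-0 2 h, 1 to 3 for Col-0 6 h, 2 to 3 for NAA against mock, 2 to 4 for Col-0 6 h against 2 h, 2 to 3 for slr-1 2 h, 0 to 1 for slr-1 6 h, 0 to 1 for slr-1 6 h against 2 h, and 0 to 1 for both direct comparisons of the genotypes with NAA. They were 0 throughout for mock against 0 h, for the genotypes at 0 h and for both response differences, and 3 for the F test. A group with 1 array left is assumed to vary like the others. Among single genes of the 6 and comparisons, 32 of 1778 repeats lost a call, 10 gained one and none turned its direction while called in either setting. Among the 7 list genes and EXPA7, 40 of 2301 repeats lost a call and 33 gained one. That tally pools EXPA7, SWEET15 and SAG101, which are given above without a test, so it does not measure the stability of the other list genes. The background shares rest on array-wide counts that move too, and the lowest count with 1 array left out is given where it moved by over 1.5 times. Without slr-1 2 h NAA replicate 1 the count was 30, against 181 with all arrays, for slr-1 6 h against 2 h, 800 against 1832 for slr-1 2 h, and 155 against 473 for the response difference at 2 h. Without slr-1 0 h replicate 1 that response difference count was 832. Without Col-0 2 h NAA replicate 1 it was 1386 against 2619 for Col-0 2 h, and 299 against 950 for slr-1 against Col-0 at 2 h. Without Col-0 0 h replicate 2 it was 256 against 756 for mock against 0 h, and 861 against 1994 for the genotypes at 0 h. Without slr-1 6 h NAA replicate 1 it was 1155 against 2116 for slr-1 6 h. Without Col-0 6 h NAA replicate 1 it was 2956 against 4928 for Col-0 6 h against 2 h, and 2936 against 5144 for the genotypes at 6 h. Without the variance trend it was 75 for slr-1 6 h against 2 h, 481 for mock against 0 h and 273 for the response difference at 2 h. With only the groups compared it was 1153 for slr-1 2 h and 1322 for the genotypes at 0 h. Signals near the added value, those of WRKY42 and of WRKY53 without NAA, are compressed.

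The replicate numbers in the titles are not said to mark a shared batch. Deviations of same-numbered arrays correlated at -0.16 to 0.13 over the 21 pairs of groups, so the numbers were not taken to pair the samples. With the replicate number as a block, the count stayed at 3 for Col-0 2 h, 2 for Col-0 6 h and 3 for slr-1 2 h, and the block changed no other count.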
